A study of Mus musculus with 15 samples.

Results

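Pair C was compared with pair B in mouse 2-cell embryos, to ask how messenger RNA levels differ between embryos given different forms of nuclear actin or none. Both pairs hold 2 libraries (B1 and B2, C1 and C2), each made from a pool of 5 ICR embryos fertilised in vitro and collected 32 hours after insemination, with any mRNA injected at 2 hours. What the pairs received is given in contradictory ways. By the titles, B is R62D and C is the non-injected control, so that C against B sets untreated embryos against embryos given the actin mutant R62D. By the annotation of the injected mRNA, B received actinWT-HA-NLS and C received actinR62D-HA-NLS, so that the same contrast sets the mutant against wild-type actin. HA is an epitope tag and NLS a nuclear localisation signal. A further pair, A (A1 and A2), carries the title Wt but is non-injected in the annotation. It entered the fit to help estimate the spread. The series also holds 9 libraries of a second experiment (Exportin 6 plus R62D, the mutant G15S, and untreated embryos, 3 of each), which are not analysed here. Every difference below is C minus B, neither reading was preferred, and no library was moved.

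Of 53023 genes in the deposited table, 21963 are protein coding. The 4891 of them that averaged 5 FPKM or more over B1, B2, C1 and C2 are the members described here. FPKM is the number of fragments in a gene scaled by the gene's length and by all fragments assigned in the library. The threshold used the mean over both pairs and not their difference. At the threshold, Mrpl10, a mitochondrial ribosomal protein gene just inside, measured 4.40 and 7.11 FPKM in B1 and B2, against 7.53 and 0.968 FPKM in C1 and C2. Acd, a telomere-protein gene just outside, measured 3.71, 4.85, 9.31 and 2.13 FPKM in the same order. Between 4887 and 4889 members were listed above 0 in each of the 4 libraries.

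Actin occurs as single molecules and as filaments, in the cytoplasm and in the nucleus. Importins and cofilin bring it into the nucleus, and Exportin 6, encoded by Xpo6, takes it out with profilin. R62D is a form that does not polymerise. Single actin molecules hold back the coactivators of serum response factor (SRF), a transcription factor of cytoskeletal genes, and actin and actin-related proteins are fixed subunits of several chromatin remodelling complexes. In the mouse, the main wave of embryonic transcription starts at the 2-cell stage, with short-lived expression of gene families such as Zscan4, Tdpoz and Eif1a-like genes, while RNA stored in the egg is being degraded.

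The libraries carried 907210 (C2) to 1555430 (C1) assigned reads, recovered from FPKM and gene length. In C2, 12279 genes reached 1 FPKM, against 13239 in B1, 13260 in B2 and 13845 in C1. Across the members, log2(FPKM + 1) correlated at r = 0.924 between B1 and B2 and at the same r between C1 and C2, against 0.912 to 0.933 between a B and a C library, so libraries of a pair were no more alike than libraries of different pairs. With pair A included, the highest r was 0.953, for A2 with C2. A1 correlated at 0.943 with both B1 and C1, against 0.921 with A2. No read fell on 10 Y-linked genes in B2, a count of 0 that allows up to 3 reads. Stage markers were present in all 4 libraries: Zscan4d at 72.6 to 214 FPKM, Zfp352 at 134 to 321 FPKM and the maternal gene Bmp15 at 41.4 to 138 FPKM. The titles number the libraries, but nothing says that they came from separate matings, and a p-value therefore reflects the spread of these pools alone. In pooled embryos, fewer cells of a kind and less RNA per cell cannot be told apart.

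No member passed in C against B. With limma on log2(FPKM + 1), adjusted over the 13443 genes tested by the Benjamini-Hochberg method, 0 of 4891 members had an adjusted p below 0.05 (0.0% of all genes tested), and the smallest adjusted p of a member was 0.655. By limma-voom, run on recovered reads, the number was 0 as well. At an unadjusted p below 0.05, 67 members (1.37%) were higher in C, where 1.64% of all genes tested were. Likewise 93 members (1.901%) were lower, where 2.22% of all genes tested were. Both C libraries lay above both B libraries for 770 members (15.74%, against 15.5% of all genes tested) and below them for 713 (14.58%, against 14.8%). The remaining 3408 members overlapped between the pairs. These shares are near the background. Without C1 the counts at an unadjusted p below 0.05 became 43 higher and 193 lower, and without C2 they became 38 and 56. Without B1 there were 91 and 58. The lower count also rests on the X chromosome: the 4666 autosomal members had 67 higher and 73 lower, and the 210 X-linked members 0 and 20.

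The coefficients were centred on 0. Their median was 0.004, with 2468 above 0 and 2423 below, the middle 50.0% between -0.253 and 0.256, and 5% and 95% quantiles of -0.784 and 0.696. Leaving out a library moved this centre. The median over autosomal members was -0.005 without B1, 0.029 without B2, -0.063 without C1 and 0.105 without C2. Medians of gene lists with a library left out, given below, carry that shift. A coefficient of at least 1, a 2-fold difference in FPKM + 1, was found for 82 members in the direction of C and for 127 in the direction of B. Differences between pair means and between single libraries are not like for like, since a mean of 2 libraries varies less than 1 library. The median absolute log2 difference was 0.254 between the pair means, 0.399 between B1 and B2 and 0.40 between C1 and C2. B1 and B2 differed by at least 1 in 558 members (11.41%) and C1 and C2 in 675 (13.8%). Between single libraries of different pairs, the number was 485 for C1 and B1 and 678 for C2 and B2. The 1508 members at 5 to 10 FPKM rested on a median of 35.2 reads and had a median standard error (SE) of 0.43, and the 249 members at 200 FPKM or more on 751.4 reads with a median SE of 0.315.

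**Figure D1:**
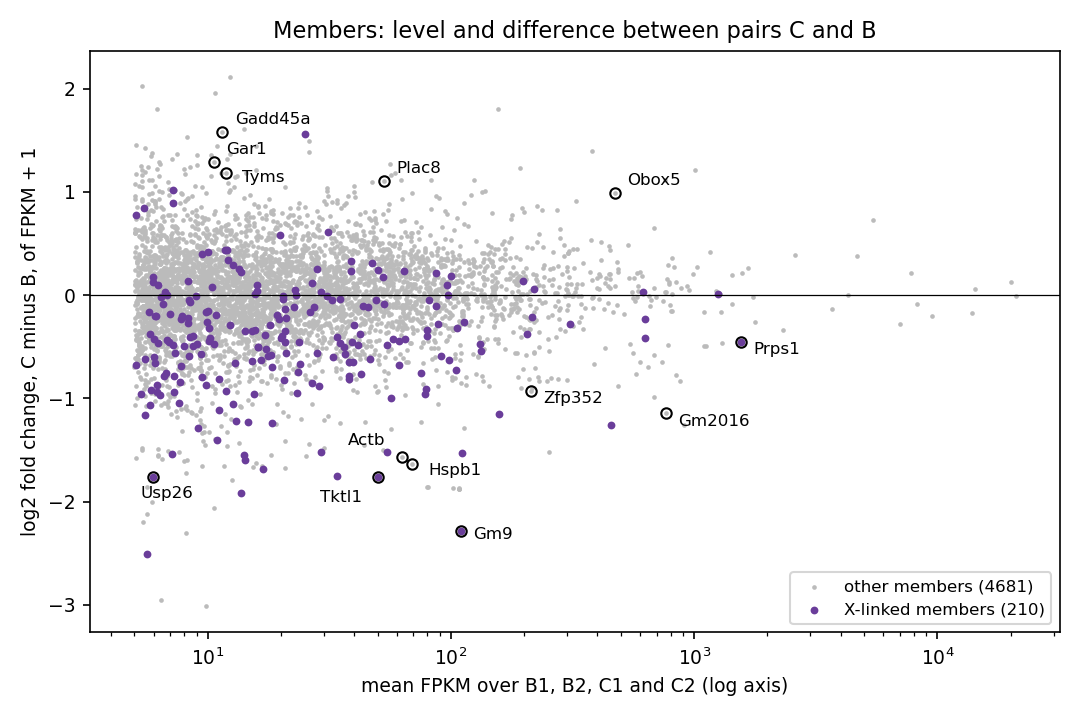
Log2 fold change (C minus B, of FPKM + 1) of each of the 4891 members against its mean FPKM over the 4 libraries, on a log axis, with the 210 X-linked members in purple and 13 named members circled. The cloud is centred on 0 and most purple points, 168 of 210, lie below it.

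The 10 most abundant members were 7 mRNAs of the mitochondrial genome, the oocyte genes Omt2a and Omt2b, and Dppa3, which encodes a maternal protein that protects DNA methylation in the zygote. Their coefficients lay between -0.28 and 0.72. Dppa3 measured 8842 and 5727 FPKM in B1 and B2, against 7663 and 8941 FPKM in C1 and C2. Omt2b measured 6513 and 2285 FPKM in B and 7432 and 5464 FPKM in C. For mt-Atp6, a subunit of the mitochondrial ATP synthase, the values were 18585 and 23069 FPKM in B and 16453 and 25769 FPKM in C. In each of these genes the pairs overlapped.

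In each direction 12 members were taken, those with the largest coefficients among members with a mean of at least 20 reads, pairs that did not overlap and an unadjusted p below 0.05, which 67 members met as lower in C and 53 as higher. The 12 lower in C had coefficients between -2.28 and -1.53 and the 12 higher between 1.10 and 1.58. Both A libraries also lay below both B libraries in 11 of the 12 lower members, and above both in 9 of the 12 higher. In these, B stood apart from both other pairs, an order that the choice of genes by their B values favours. Values of the 24 describe this selection, and none of the 24 passed over all genes. The share of all genes tested that meets the full rule was not counted. At an unadjusted p below 0.05 alone (limma), 1.901% of members were lower and 1.37% higher, against 2.22% and 1.64% of all genes tested. Promoter windows are shown for 4 of the 24: Gm9, with the largest coefficient, Hspb1 and Tktl1, the lower members with the smallest SE, and Tyms, the higher member with the smallest SE. Each window is the 250 bases before the RefSeq start (build GRCm38.p6, the mm10 assembly), read 5′ to 3′ on the gene's strand. Capitals mark every match, on either strand, to the CCAAT box, the TATA box TATAAA, the GC box GGGCGG, the core heat shock element GAANNTTC or the CArG box bound by SRF. The windows span chr5:135887669-135887918 for Hspb1 (plus strand), chrX:74177009-74177258 for Tktl1 (plus strand), chrX:37211042-37211291 for Gm9 (minus strand) and chr5:30073626-30073875 for Tyms (minus strand).
Hspb1: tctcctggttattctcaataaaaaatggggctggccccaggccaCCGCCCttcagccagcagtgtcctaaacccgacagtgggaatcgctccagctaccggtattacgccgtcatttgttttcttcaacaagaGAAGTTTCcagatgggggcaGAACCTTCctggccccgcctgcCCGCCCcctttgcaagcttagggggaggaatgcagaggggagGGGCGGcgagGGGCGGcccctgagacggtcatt
Tktl1: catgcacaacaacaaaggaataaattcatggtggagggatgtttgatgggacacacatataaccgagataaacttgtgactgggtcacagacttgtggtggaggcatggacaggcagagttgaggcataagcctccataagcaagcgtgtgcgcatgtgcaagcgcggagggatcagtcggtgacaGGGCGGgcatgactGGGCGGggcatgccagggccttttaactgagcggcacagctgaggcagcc
Gm9: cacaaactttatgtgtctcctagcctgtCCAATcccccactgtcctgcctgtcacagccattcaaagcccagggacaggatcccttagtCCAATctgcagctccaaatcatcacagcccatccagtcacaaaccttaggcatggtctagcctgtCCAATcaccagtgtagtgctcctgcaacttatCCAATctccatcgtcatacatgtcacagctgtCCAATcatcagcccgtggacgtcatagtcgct
Tyms: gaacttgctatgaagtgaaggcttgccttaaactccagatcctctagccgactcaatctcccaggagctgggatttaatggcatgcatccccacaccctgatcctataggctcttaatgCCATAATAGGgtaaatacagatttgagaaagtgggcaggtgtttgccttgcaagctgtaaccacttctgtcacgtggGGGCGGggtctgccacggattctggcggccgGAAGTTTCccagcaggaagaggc

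The Hspb1 window holds 2 matches to the heat shock element, 117 and 97 bases before the start, and 4 GC boxes. Tktl1 has 2 GC boxes and Gm9 has 5 CCAAT boxes. The Tyms window has 1 GC box, 1 heat shock element and 1 CArG box, 131 bases before the start. Windows were matched for 10 of the 12 lower members and for 12 of the 12 higher ones. A GC box was found in 4 of the 10 and in 4 of the 12, where 58.2% of 3738 members with a window and 40.0% of all 20086 windows hold one. CCAAT was found in 4 of 10 and 6 of 12 (40.9% of members, 35.3% of all windows). The heat shock element was found in 1 of 10 and 3 of 12 (5.9% of members, 6.4% of all windows), the CArG box in 0 of 10 and 1 of 12 (1.0% and 1.4%) and TATAAA in 0 of both (6.9% and 12.2%). A match is a description of the letters only.

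Hspb1, the small heat shock protein HSP27, which binds actin as well as unfolded proteins, measured 111 and 98.6 FPKM in B1 and B2, against 32.7 and 33.1 FPKM in C1 and C2. The C libraries were close together and both far below B. Pair B averaged 104.9 ± 8.87 FPKM, and pair C 32.9 ± 0.287 FPKM (SD, n = 2), a ratio of 3.19, and the log2 fold change was -1.64 ± 0.29 (SE), with an adjusted p of 0.72 (limma). In pair A it measured 39.3 and 29.5 FPKM. Tktl1, an X-linked gene of a transketolase-like enzyme, measured 74.8 and 81.2 FPKM in B and 22.6 and 21.8 FPKM in C. Here too each pair was tight, and the log2 fold change was -1.77 ± 0.30 (SE), with an adjusted p of 0.677 (limma). Pair A measured 36.8 and 27.9 FPKM.

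Gm9, an X-linked predicted gene, had the largest coefficient of the 24. It measured 211 and 131 FPKM in B and 85.0 and 12.8 FPKM in C, a log2 fold change of -2.28 ± 0.76 (SE). C2 lay far below C1, and without C2 the coefficient was -0.961. The other 2 X-linked members among the 12 were Usp26, a ubiquitin protease gene expressed in germ cells, at 10.1 and 9.32 FPKM in B and 1.71 and 2.67 FPKM in C, and 1700013H16Rik, at 137 and 193 FPKM in B and 72.0 and 43.2 FPKM in C. Dkkl1, which encodes a secreted protein made in the early embryo and in spermatocytes, measured 22.6 and 27.1 FPKM in B and 13.9 and 3.50 FPKM in C. Its coefficient of -1.65 became -0.791 without C2.

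Among the rest of the lower members, the cytoskeletal genes were Actb and Tuba1c. Tuba1c, an alpha-tubulin, measured 34.2 and 38.8 FPKM in B and 23.1 and 5.70 FPKM in C, and its coefficient of -1.56 became -0.636 without C2. In pair A it measured 6.68 and 4.85 FPKM, near C2. Fbxw11, an F-box protein that marks phosphorylated proteins for degradation, measured 11.3 and 8.32 FPKM in B and 2.53 and 2.80 FPKM in C, a log2 fold change of -1.55 ± 0.37 (SE). Psme1, a subunit of the proteasome activator PA28, measured 15.03 and 10.4 FPKM in B and 2.33 and 4.99 FPKM in C. Abcb5, a membrane transporter, and the histone gene Hist1h2bc had coefficients of -1.59 and -1.62. Histone and tubulin genes have near-identical copies, among which reads were split as fractions, so their single values are uncertain.

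The 12 members higher in C averaged 7.76 to 83.0 FPKM in that pair. Gadd45a, a stress-response gene and p53 target, measured 2.24 and 9.97 FPKM in B and 15.6 and 18.1 FPKM in C, a log2 fold change of 1.58 ± 0.58 (SE). B1 lay far below B2, and without B1 the coefficient was 0.701. Tyms, thymidylate synthase, which makes the thymidine nucleotide for DNA synthesis, was tighter, with 7.14 and 6.60 FPKM in B and 15.3 and 18.5 FPKM in C. Its means were 6.87 ± 0.384 and 16.9 ± 2.26 FPKM (SD, n = 2) and its log2 fold change 1.18 ± 0.33 (SE). Gar1, a protein of the small nucleolar particles that guide pseudouridylation, measured 5.07 and 6.35 FPKM in B and 13.5 and 17.4 FPKM in C, a log2 fold change of 1.29 ± 0.34 (SE). In pair A, Tyms measured 9.61 and 7.71 FPKM and Gar1 11.7 and 12.003 FPKM.

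Tsn, the nucleic-acid-binding protein translin, measured 2.10 and 3.61 FPKM in B and 7.04 and 11.0 FPKM in C. Ltn1, the ubiquitin ligase of stalled ribosomes, measured 3.17 and 3.25 FPKM in B and 6.90 and 9.55 FPKM in C. Stub1, the ubiquitin ligase CHIP that works with chaperones, measured 2.68 and 8.93 FPKM in B and 17.8 and 11.8 FPKM in C, and its coefficient of 1.36 was 0.640 without B1. Ddx4, the germ cell helicase Vasa, measured 13.6 and 5.55 FPKM in B and 24.3 and 19.4 FPKM in C, and its coefficient of 1.21 was 0.634 without B2. Tefm, the mitochondrial transcription elongation factor, and Ift43, of the ciliary transport machinery, had coefficients of 1.27 and 1.11 that became 0.519 and 0.423 without B2. The other 3 were Aptx, which removes abortive ligation products from DNA, the vesicle fusion protein Vamp8, and Plac8, at 37.7 and 27.3 FPKM in B and 95.7 and 51.2 FPKM in C. The coefficients of Aptx (1.21) and Plac8 (1.10) were 0.80 without B2 and 0.657 without C1.

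**Figure D2:**
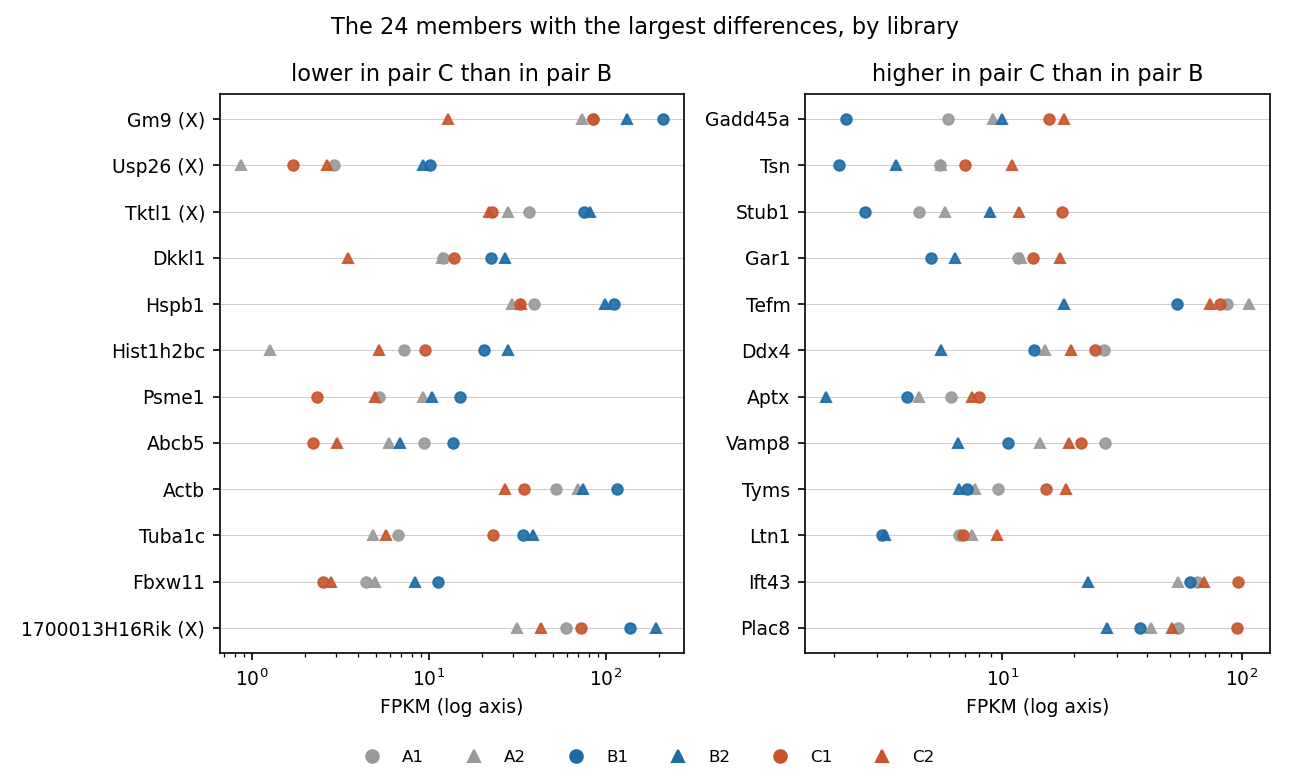
FPKM (log axis) of the 12 members with the largest coefficients in each direction, by library, with pair A in grey, B in blue, C in orange, replicate 1 as circles and replicate 2 as triangles. In every gene shown both C libraries lie on 1 side of both B libraries, by the way the genes were chosen, and C2 stands apart from C1 in Gm9, Dkkl1 and Tuba1c.

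Of the 136 members among the genes that the naming rule takes, 48 had an unadjusted p below 0.05. All 48 kept their sign in each of 13 other settings, and 6 of them, Actb, Fbxw11, Gar1, Gm5941, Hspb1 and Tktl1, had an unadjusted p below 0.05 in each setting. Gm5941 is an X-linked gene with a mean of 11.8 reads. The kept signs were largely fixed in advance. The pairs of these genes do not overlap, so leaving out a library cannot turn the sign. Changing the filter, the variance trend, the block or the use of pair A leaves the coefficient as it is.

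The actins were looked at because the injected mRNA, in either reading, codes for actin. The values by gene do not separate reads of injected actin mRNA from those of the embryo's own actin genes. The part of injected mRNA in the actin values was not tested. Actb, cytoplasmic beta-actin (chromosome 5, 142903115 to 142906754, minus strand, mm10), measured 116 and 74.1 FPKM in B1 and B2, against 34.6 and 27.1 FPKM in C1 and C2. Both C libraries lay below both B libraries, and pair A lay between, at 52.0 and 69.2 FPKM. The log2 fold change was -1.57 ± 0.35 (SE), with an adjusted p of 1 (limma), and it ranged from -1.89 to -1.25 over the other settings. Actg1, cytoplasmic gamma-actin, overlapped at 7.98 and 8.27 FPKM in B and 8.26 and 3.21 FPKM in C. Tmsb4x, which encodes the actin-sequestering peptide thymosin beta-4 and lies on the X chromosome, measured 15.6 and 15.3 FPKM in B and 8.91 and 4.82 FPKM in C, a log2 fold change of -1.11 ± 0.39 (SE) that was -0.728 without C2.

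The depolymerising factors did not share that order. Dstn, destrin, measured 125 and 130 FPKM in B and 158 and 194 FPKM in C, with a coefficient of 0.45 ± 0.27 (SE). Cfl1, cofilin-1, which also carries actin into the nucleus, measured 43.2 and 52.5 FPKM in B and 56.4 and 33.5 FPKM in C. Cfl2 overlapped as well, at 147 and 130 FPKM in B and 116 and 199 FPKM in C. Of the 12 members that are actins or act on filament turnover, 8 had coefficients below 0 and 4 above, with a median of -0.174 against 0.004 over all members, and 2 (Actb and Tmsb4x) were lower at an unadjusted p below 0.05. That median was -0.034 without B2 and 0.014 without C2. Of 17 nucleators and their activators, 8 coefficients were above 0 and 9 below, with 0 in either direction at an unadjusted p below 0.05. Arpc2, of the Arp2/3 complex that starts branched filaments, measured 68.8 and 76.6 FPKM in B and 73.2 and 87.0 FPKM in C.

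Genes that move actin in and out of the nucleus showed no common direction. Of 8 members, 3 had coefficients above 0 and 5 below, with a median of -0.079 that was 0.055 without B2 and 0.084 without C1. Kpna2, an importin alpha, measured 371 and 420 FPKM in B and 383 and 445 FPKM in C. Ranbp1, a partner of the transport GTPase Ran, measured 55.3 and 53.3 FPKM in B and 30.4 and 48.3 FPKM in C. Xpo6 was below the threshold, at 2.24 and 1.53 FPKM in B and 1.94 and 0.782 FPKM in C, as was Srf, at 2.32 and 1.43 FPKM in B and 2.36 and 1.08 FPKM in C. Of 25 genes listed as SRF, its coactivators and targets, 9 were tested and 1 was a member. That was the immediate early gene Ier2, at 6.23 and 17.0 FPKM in B and 34.2 and 9.41 FPKM in C, where the pairs overlapped. Among 20 members of remodelling complexes that hold actin or actin-related proteins, 11 coefficients were above 0 and 9 below, with a median of 0.016 that was -0.118 without B1 and -0.156 without C1. Vps72, which handles the histone variant H2A.Z in the SRCAP complex, had an unadjusted p below 0.05, at 3.04 and 5.52 FPKM in B and 11.0 and 8.18 FPKM in C. Actr6, of the same complex, overlapped at 85.7 and 141 FPKM in B and 92.1 and 173 FPKM in C.

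Genes of the 2-cell-stage programme lay mostly below 0. Of 60 members, 51 had coefficients below 0 and 9 above, with a median of -0.517 against 0.004 over all members. At an unadjusted p below 0.05, 5 were lower (Gm2016, Zfp352, Zscan4d, Tdpoz2 and AA792892) and 1 was higher (Obox5), against 1.901% and 1.37% of all members. Relative to each gene's mean over the 4 libraries, the list's median was 0.166 in B1, 0.348 in B2, 0.096 in C1 and -0.53 in C2. Among these 4 libraries C2 stood apart, and C1 and B1 were close. Pair A was not part of this comparison. The list's median was -0.146 without C2, -0.326 without B2, -0.673 without B1 and -0.719 without C1.

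Zfp352, a zinc finger gene of this stage, measured 241 and 321 FPKM in B1 and B2, against 159 and 134 FPKM in C1 and C2, with the C libraries close together and both below B. Its log2 fold change was -0.93 ± 0.30 (SE). Zscan4d, of a family linked to telomere lengthening, measured 153 and 214 FPKM in B and 133 and 72.6 FPKM in C. Gm2016, an Eif1a-like copy on chromosome 12, measured 937 and 1104 FPKM in B and 738 and 287 FPKM in C. The lowest coefficient belonged to Gm6763, at 105 and 187 FPKM in B and 101 and 13.8 FPKM in C, where C1 was close to B1. In A1 and A2, Zfp352 measured 147 and 111 FPKM, Zscan4d 88.0 and 73.9 FPKM and Gm2016 472 and 293 FPKM. Gm6763 measured 101 and 26.1 FPKM there. C2 was thus not the only library with low values of these genes. Without C2 the coefficients of Gm2016 and Gm6763 were -0.463 and -0.473, from -1.14 and -1.86. Obox5, a homeobox gene, had the opposite order, with 409 and 234 FPKM in B and 722 and 523 FPKM in C, a coefficient of 0.99 that was 0.585 without B2. Obox6, the list's most abundant member, differed by 0.04 ± 0.28 (SE). These families hold near-identical copies, so the members are not independent of each other and their single values are uncertain.

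Maternal and oocyte transcripts split by library number and not by pair. Of 56 members, 30 had coefficients above 0 and 26 below, with a median of 0.047. The list's median level was 0.24 in B1 and 0.431 in C1, against -0.189 in B2 and -0.363 in C2. It was 0.44 without C2 and -0.284 without C1. Npm2, a histone chaperone of the egg, measured 147 and 99.4 FPKM in B and 119 and 38.3 FPKM in C. Tcl1b4, of an oocyte gene cluster, measured 138 and 25.8 FPKM in B and 323 and 139 FPKM in C. In A1 and A2, Npm2 measured 161 and 76.8 FPKM and Tcl1b4 468 and 54.1 FPKM. Dppa3, also of this list, had no such order there, at 8278 and 8570 FPKM. Among 12 early lineage and pluripotency genes, 5 coefficients were above 0 and 7 below. The most abundant, Dppa5a, measured 1552 and 1345 FPKM in B and 1428 and 1969 FPKM in C.

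Genes of the ribosome lay mostly above 0 by small amounts. Of 86 cytoplasmic ribosomal protein genes, 73 had coefficients above 0 and 13 below, with a median of 0.213. For 41 both C libraries lay above both B libraries, and for 3 below, against 15.74% and 14.58% of all members. The list's median level was -0.055 in B1, -0.188 in B2, 0.024 in C1 and 0.218 in C2. The median coefficient was 0.114 without C2, near the 0.105 of autosomal members in that setting. Without C1 it was 0.331, against -0.063 for autosomal members. Rps15 measured 214 and 178 FPKM in B and 308 and 389 FPKM in C, and Rps26 156 and 134 FPKM in B and 226 and 284 FPKM in C. These were the 2 with an unadjusted p below 0.05. Rplp0, of the ribosomal stalk and the most abundant, overlapped at 798 and 934 FPKM in B and 939 and 871 FPKM in C. The 4 X-linked genes of the list all had coefficients below 0, and the lowest was Rpl10, at 101 and 118 FPKM in B and 63.5 and 81.9 FPKM in C.

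Ribosome assembly gave a mixed picture. Of 82 members of ribosome biogenesis and the nucleolus, 60 coefficients were above 0 and 22 below, with a median of 0.115. B1 was lowest, at a median of -0.242, while B2, at 0.138, was above C1 (0.093) and C2 (0.023). The median was -0.076 without B1 and 0.326 without B2. Gar1 and Rcl1, an RNA-processing factor of the small subunit, were higher at an unadjusted p below 0.05. Rcl1 measured 18.0 and 28.8 FPKM in B and 53.5 and 36.1 FPKM in C. The 56 mitochondrial ribosomal protein genes had 36 coefficients above 0 and 20 below, with a median of 0.171, and medians of 0.142 to 0.238 in the other settings. Mrpl46 measured 21.2 and 29.3 FPKM in B and 59.5 and 41.3 FPKM in C, and Mrpl50 14.2 and 11.5 FPKM in B and 20.7 and 36.5 FPKM in C. Among 45 translation initiation factors, 25 were above 0 and 20 below, with a median of 0.022 that was -0.103 without B1 and -0.056 without C1. Among 14 aminoacyl-tRNA synthetase genes, 8 were above 0 and 6 below, with a median of 0.154 that was 0.004 without B1 and 0.078 without C1.

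Of 69 splicing factors and hnRNP genes, 49 had coefficients above 0 and 20 below, with a median of 0.197. The 4 libraries kept the pairs apart for this list, at -0.063 and -0.061 in B1 and B2, against 0.07 and 0.088 in C1 and C2, and the median ranged from 0.151 to 0.237 over the other settings. Snrpb2, of the U2 particle, measured 30.99 and 20.2 FPKM in B and 44.8 and 49.0 FPKM in C. Magoh, of the exon junction complex and the most abundant, measured 1057 and 818 FPKM in B and 1054 and 1194 FPKM in C. Among 64 subunits of RNA polymerases and general transcription factors, 41 were above 0 and 23 below, with a median of 0.095 that was 0.051 without B2, 0.008 without C1 and 0.204 without C2. Taf5, a scaffold of the promoter-binding complex TFIID, measured 22.04 and 18.5 FPKM in B and 33.6 and 33.5 FPKM in C. Of 22 Mediator subunits 15 were above 0, among them Med11, at 50.6 and 58.4 FPKM in B and 91.0 and 87.5 FPKM in C. The lowest of these 22 was the X-linked Med14, at 19.4 and 21.2 FPKM in B and 13.2 and 12.3 FPKM in C.

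Enzymes that methylate or deacetylate histones went the other way in count, with 7 of 31 coefficients above 0 and 24 below, a median of -0.128 and 0 members with an unadjusted p below 0.05. Their median level was 0.177 in B2, and the median coefficient was -0.06 without B2 and -0.253 without C1. Kat7, a histone acetyltransferase counted in the list and its lowest member, measured 6.57 and 8.32 FPKM in B and 4.82 and 2.59 FPKM in C. Core histones and their chaperones had 18 of 29 coefficients above 0 and a median of 0.243, which turned to -0.163 without C1. The most abundant, H2afz, which encodes H2A.Z, measured 1205 and 805 FPKM in B and 1204 and 1444 FPKM in C.

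Cell division genes had more coefficients above 0 than below. Of 61 genes of the spindle, the checkpoint and the anaphase-promoting complex, 39 were above 0 and 22 below, with a median of 0.147 (0.045 without B1 and 0.029 without C1). Mad2l1, a checkpoint protein that holds back the anaphase-promoting complex, measured 79.9 and 58.2 FPKM in B and 114 and 127 FPKM in C, a log2 fold change of 0.81 ± 0.29 (SE). Bub3, of the same checkpoint, measured 18.1 and 33.6 FPKM in B and 44.6 and 45.2 FPKM in C. Bub1b, their partner, had the opposite order, with 9.06 and 10.4 FPKM in B and 5.87 and 5.41 FPKM in C. For 29 cyclins and cell cycle kinases, 19 were above 0 and 10 below, with a median of 0.09 that was -0.119 without C1. The inhibitor Cdkn2d measured 32.6 and 35.6 FPKM in B and 13.9 and 14.7 FPKM in C, tight within each pair, with an adjusted p of 1 (limma).

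Of 49 replication and nucleotide supply genes, 29 coefficients were above 0 and 20 below (median 0.128, and 0.039 without B1), and Tyms alone had an unadjusted p below 0.05. Gins2, of the replicative helicase, measured 11.8 and 14.1 FPKM in B and 9.96 and 4.17 FPKM in C. Gmnn, geminin, which blocks relicensing of origins, was the most abundant, at 1065 and 772 FPKM in B and 888 and 1234.3 FPKM in C. The 36 DNA damage and repair members had 19 coefficients above 0, 17 below and a median of 0.024, which turned to -0.113 without B1, -0.053 without B2 and -0.074 without C1. Of 19 members among p53 and its targets, 7 were above 0 and 12 below, and Gadd45a was the 1 with an unadjusted p below 0.05. Mdm4, an inhibitor of p53 and the most abundant of these, measured 271 and 206 FPKM in B and 267 and 149 FPKM in C.

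The 13 mRNAs of the mitochondrial genome had 5 coefficients above 0 and 8 below, with a median of -0.008. Their level differed within each pair, at -0.152 and 0.16 in B1 and B2, against -0.308 and 0.253 in C1 and C2, and the median was 0.25 without C1 and -0.332 without C2. The 73 nuclear genes of the respiratory chain had 45 above 0 and 28 below. Cox4i1, a subunit of cytochrome c oxidase, measured 125 and 91.3 FPKM in B and 186 and 186 FPKM in C, while Atp5g3, of the ATP synthase, measured 88.8 and 53.7 FPKM in B and 41.9 and 32.3 FPKM in C. Of 20 glycolysis, pyruvate and pentose phosphate genes 7 were above 0 and 13 below, and all 5 X-linked members of that list, Tktl1 among them, were below 0. Without its X-linked members the list's median was -0.02.

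Chaperone and proteasome genes held single large differences without a common direction. The 46 heat shock and chaperonin members had 24 coefficients above 0, 22 below and a median of 0.012 (-0.076 without B1 and -0.044 without C1). Besides Hspb1, Trap1, the mitochondrial HSP90, was lower at an unadjusted p below 0.05, at 19.2 and 19.7 FPKM in B and 12.5 and 9.21 FPKM in C. Dnajb9, a chaperone of the endoplasmic reticulum, measured 431 and 518 FPKM in B and 295 and 300 FPKM in C. The 39 proteasome members had 24 above 0 and 15 below, with a median of 0.166 that was 0.066 without B1, 0.105 without B2, 0.249 without C1 and 0.078 without C2. Small GTPases and coat proteins of vesicle transport split evenly, 24 and 24, with Rab1a, of transport from the endoplasmic reticulum to the Golgi, at 61.4 and 77.2 FPKM in B and 47.2 and 34.8 FPKM in C. Importins, exportins and nucleoporins had 23 above 0 and 18 below, with 0 at an unadjusted p below 0.05. Of 34 interferon and RNA-sensing genes, which can respond to introduced RNA, 7 were tested and 2 were members. These were Irf1, at 3.08 and 5.47 FPKM in B and 9.46 and 4.44 FPKM in C, and Stat2, at 5.74 and 6.50 FPKM in B and 5.10 and 5.58 FPKM in C.

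**Figure D3:**
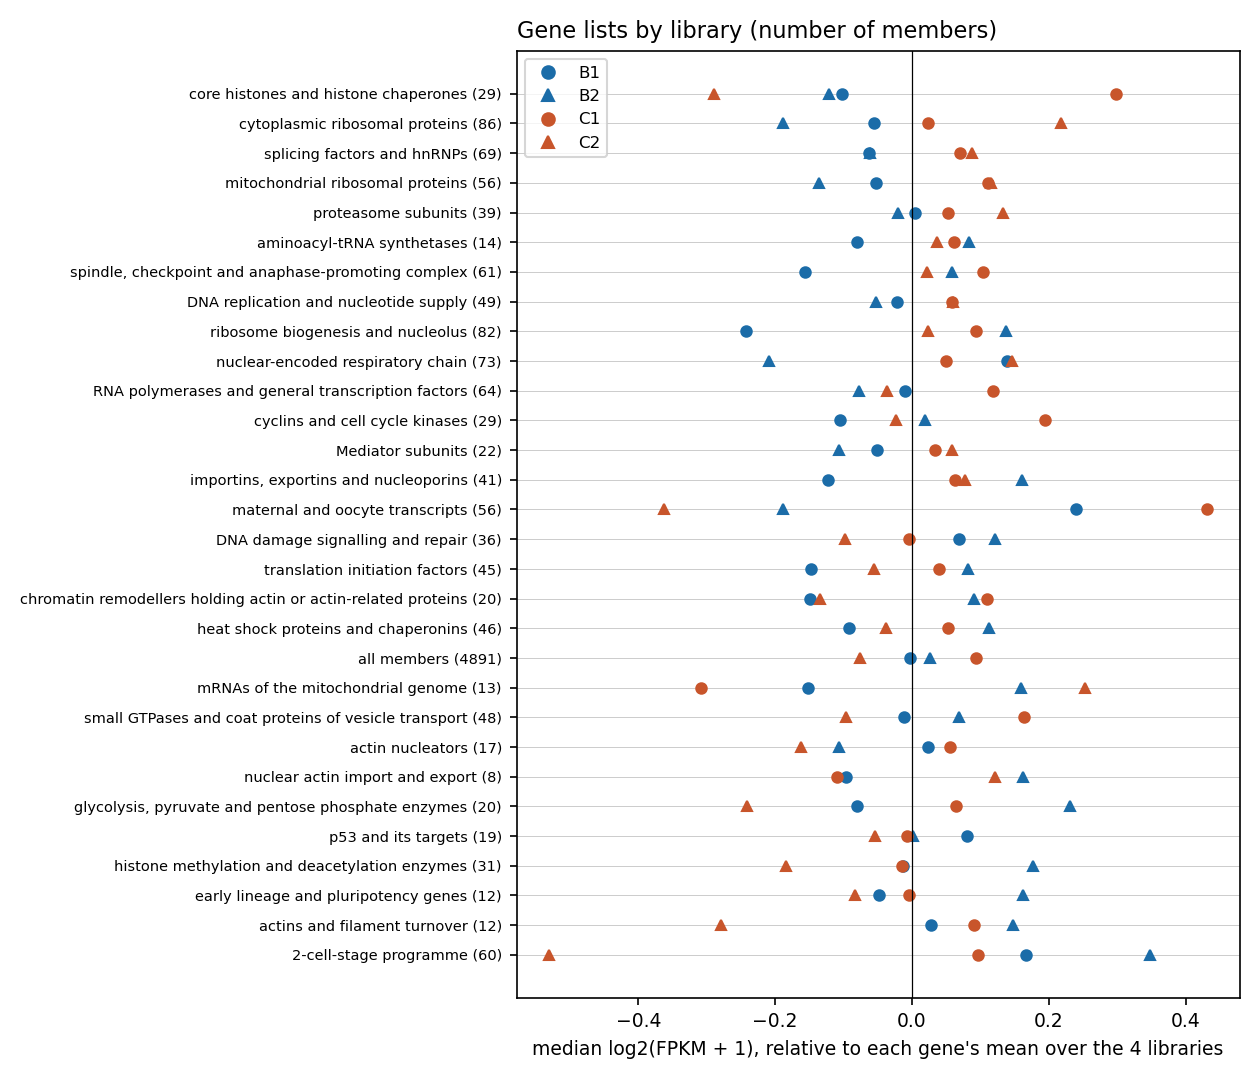
Median log2(FPKM + 1) of the members of each gene list in each library, relative to each gene's mean over the 4 libraries, with the number of members in brackets, B in blue, C in orange, replicate 1 as circles and replicate 2 as triangles. For splicing factors, as for the ribosomal protein, Mediator, replication and proteasome lists, both C points lie right of both B points. For the 2-cell-stage programme C2 (-0.53) lies apart from the other 3 libraries (0.096 to 0.348). Pair A is not shown.

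The X chromosome differed from the autosomes in C against B. X-linked genes were set apart as a group after their values were seen, so no test of the group is given. Of 210 X-linked members, 168 (80.0%) had coefficients below 0 and 42 above, with a median of -0.418. Of 4666 autosomal members, 48.2% were below 0, with a median of 0.017. The medians of the 19 autosomes lay between -0.072 (chromosome 14) and 0.135 (chromosome 8). At an unadjusted p below 0.05, 20 X-linked members (9.52%) were lower and 0 higher, against 1.56% and 1.44% of autosomal members. Both C libraries lay below both B libraries for 90 of the 210 and above them for 11, against 14.58% and 15.74% of all members.

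The order held between single libraries. Over X-linked members the median log2 difference was -0.333 for C1 minus B1, -0.268 for C2 minus B1, -0.478 for C1 minus B2 and -0.497 for C2 minus B2, with 146 to 158 of 210 members below 0. Over autosomal members the same differences had medians between -0.087 and 0.114. Without B2 the X-linked median was -0.286 with 12 lower and 0 higher at an unadjusted p below 0.05, and over all 13 other settings it ranged from -0.472 to -0.286.

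**Figure D4:**
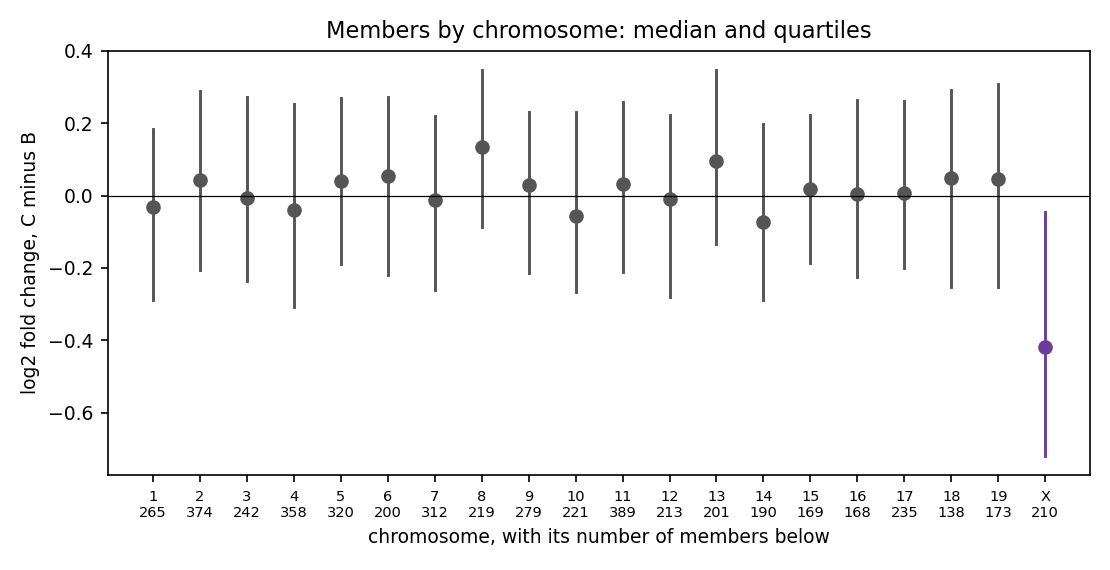
Log2 fold change (C minus B) of the members of each chromosome with at least 100 members, as the median (point) and the quartiles (line), with the number of members under each chromosome. The X chromosome, in purple, has a median of -0.418, and the autosomes lie between -0.072 and 0.135.

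Single X-linked members show the size of the difference. Prps1, which makes the sugar phosphate for nucleotide synthesis and is the most abundant, measured 1550 and 2060 FPKM in B and 1172 and 1453 FPKM in C. Fundc1, a receptor for removal of mitochondria, measured 684 and 602 FPKM in B and 282 and 253 FPKM in C, a log2 fold change of -1.26 ± 0.37 (SE). Bcap31, of the endoplasmic reticulum, measured 680 and 752 FPKM in B and 472 and 609 FPKM in C. Not all followed. Hprt, of purine salvage, measured 980 and 1475 FPKM in B and 856 and 1722 FPKM in C, and Ddx3x, an RNA helicase, 83.5 and 103 FPKM in B and 99.3 and 99.7 FPKM in C. Of 29 gene lists with at least 5 members, 17 held X-linked members, 33 in all, of which 27 had coefficients below 0, and in 5 lists the lowest coefficient belonged to an X-linked gene.

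Y-linked genes mark male embryos, and their values stand beside the X-linked ones. The 10 Y-linked genes had 195 reads in B1, 0 in B2, 311.2 in C1 and 231.5 in C2, or 31.2, 0, 38.4 and 48.1 summed FPKM. Eif2s3y, a translation initiation factor and the most abundant of them, measured 15.96 FPKM in B1, 0 in B2, 17.1 FPKM in C1 and 16.4 FPKM in C2. Its X-linked counterpart Eif2s3x measured 19.4, 36.3, 15.01 and 24.3 FPKM in the same order. The 10 genes are a chosen list, and not all genes assigned to the Y chromosome are in it. Of 2 members on that chromosome, the list holds 1, Eif2s3y. Relative to each gene's mean over the 4 libraries, Eif2s3y was at -3.097 in B2, and the median of the 2 members was -1.774. The other member was thus less low in B2 than Eif2s3y. The number of male and female embryos in each pool of 5 is not given in the sources used here, and X-linked dosage differs between the sexes until 1 X chromosome is silenced. Over the 6 libraries the X-linked median relative to the autosomal one was highest in B2 (0.312) and lowest in A2 (-0.288), which had the most Y-linked FPKM (51.6). B1, C2 and C1, at 0.157, -0.036 and -0.253, lay between, and A1, with 19.7 Y-linked FPKM, was at 0.085. The part of embryo sex in the X-linked difference was not tested.

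**Figure D5:**
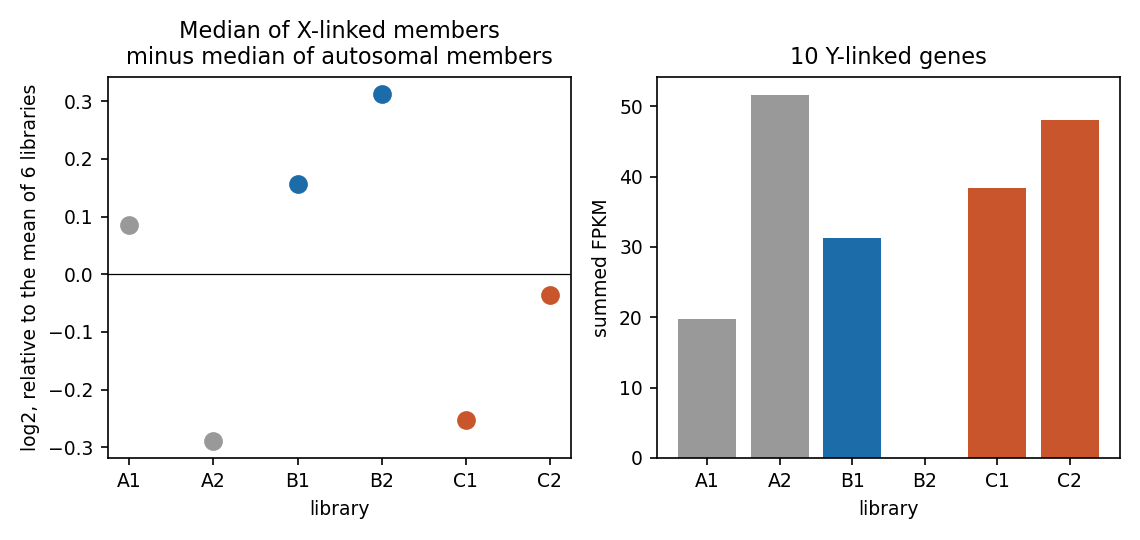
Left, the median level of the 210 X-linked members minus that of the 4666 autosomal members in each library (log2, relative to each gene's mean over the 6 libraries), and right, the summed FPKM of 10 Y-linked genes, with pair A in grey, B in blue and C in orange. B2 has the highest X-linked level (0.312) and 0 on these 10 genes, while C1 and A2 have the lowest X-linked levels.

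Markers of other cell types were read in the same libraries. The 12 cumulus and granulosa markers had 12 and 18 reads in B1 and B2, against 18.5 and 4.5 in C1 and C2, with 6 to 8 of the 12 at 0, and none of them is a member. The receptor gene Fshr and the granulosa factor Foxl2 were listed at 0 in all 4. The 8 sperm markers had 31.4 to 52.1 summed FPKM in B and 34.2 to 42.1 in C, with 4 to 6 of the 8, Prm1 among them, at 0, and most of it was Ldhc, at 46.0 and 28.6 FPKM in B and 35.6 and 32.1 FPKM in C. The 5 blood markers had 76.9 and 40.1 summed FPKM in B and 30.3 and 8.88 in C, with 2 or 3 of the 5, both beta-globin genes among them, at 0. Hba-a1, an alpha-globin gene, measured 39.1 and 23.5 FPKM in B and 15.8 and 4.75 FPKM in C. Of the 5, only Hba-a1 and Hba-a2, both alpha-globin genes, were expressed enough to be tested. Both were lower in C, though the 5 markers had 36 reads in B2 and 35 in C1. Pair A alone held 80.8 (A1) and 14.2 (A2) summed FPKM. The part of the blood markers in the result was not tested.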

How the data were processed

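RNA was measured in 6 libraries of 5 pooled 2-cell embryos each. Per the labels' protocols, lysates received ERCC spike-ins diluted 1 to 40000, 13 PCR cycles followed, and sequencing was paired (50 and 25 bases). Named in the submitters' processing notes are mm10, Trimmomatic, Trim Galore, cutadapt, STAR and featureCounts. For annotation, strand and versions the sources used here give nothing. The authors deposited FPKM values with a length for each gene; the table has 0 spike-in rows. FPKM times length gave reads up to 1 factor per library. Between 55.57% and 57.87% of these were whole (tolerance 0.001 read), since shared reads were counted as fractions, and 95.98% to 100% were multiples of 0.01 read. Statements on reads reflect counting error alone, as PCR copies remain in the data.

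The 13443 genes averaging 1 FPKM or more in the 6 libraries were fitted as log2(FPKM + 1) with 1 mean per pair in limma 3.58.1 (R 4.3.3), using a variance trend and Benjamini-Hochberg adjustment at 0.05. On this log2(FPKM + 1) scale, differences of low genes are understated. The fit was run on simulated data with changes larger than any coefficient named here. That run does not show whether differences of the observed size can be found. Members, 35 gene lists and the naming rule were chosen with earlier results of these data known. The rule took, per direction, the 12 largest coefficients among members with at least 20 mean reads, no overlap between the pairs and an unadjusted p below 0.05. It added the 10 most abundant members, the highest, lowest and most abundant member of each list with up to 3 more at an unadjusted p below 0.05, Actb, Actg1, Xpo6, Srf and the genes next to the 5 FPKM threshold. Other list members named (AA792892, Bcap31, Bmp15, Cfl1, Cfl2, Ddx3x, Eif2s3x, Fundc1, Hprt, Tdpoz2 and Zscan4d) were chosen after their values were seen. The list of X-linked genes, its settings and the count over autosomal members were added after seeing the data. Alternatives were a pseudocount of 0.1, no filter, members alone in the fit, median scaling, quantile normalization, no variance trend, pairs B and C alone, a replicate block, each library of pairs B and C left out in turn and limma-voom on recovered reads. Promoter windows are RefSeq's.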

Additional observations from a re-analysis of the deposited data

How the results depend on the processing

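The count of members with an adjusted p below 0.05 was 0 in each of the 13 other settings, limma-voom included. The count higher in C at an unadjusted p below 0.05 (67) moved to 120 with no filter, 36 with no variance trend and 101 with the replicate block, and ranged from 38 to 91 when 1 library was left out. The count lower in C (93) was 132 with the replicate block and ranged from 56 to 193 when 1 library was left out. The cause was not tested. Same-numbered libraries deviated from their pair means with r = -0.05 for B and C, 0.197 for A and B and 0.33 for A and C. On the value for B and C the numbers were not taken as a pairing, though A shared deviations with both. The maternal and oocyte list did split by number, and the replicate block was 1 of the settings. Of the lists with at least 5 members, those whose median had 1 sign in each setting were the 2-cell-stage programme, spindle and checkpoint, DNA replication, cytoplasmic and mitochondrial ribosomal proteins, aminoacyl-tRNA synthetases, proteasome, RNA polymerases, Mediator, splicing factors, histone methylation and deacetylation enzymes and X-linked genes. Among the named members, 40 changed sign in at least 1 setting, none of them with an unadjusted p below 0.05. For members with an unadjusted p below 0.05, most settings could not change the sign. Nor could a list's median change with the filter, the variance trend, the block or the use of pair A, which leave the coefficients as they are. Single values lost an unadjusted p below 0.05 in 183 combinations of gene and setting and reached it in 56. With 2 libraries a pair and 907210 to 1555430 reads, members at 5 to 10 FPKM rested on a median of 35.2 reads.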
